A study of Mus musculus with 28 samples.

Results

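The question here is whether αPD1 + αGITR treatment changed gene expression in regulatory T (Treg) cells of the brain tumor by more, or by less, than in Treg cells of the spleen. For each gene the treatment effect is the difference in mean log2(TPM + 1) between treated and control libraries, where TPM is a transcript abundance scaled per length and per library. The interaction is the treatment effect in GBM Treg cells minus the treatment effect in splenic Treg cells, so a positive interaction means that treatment moved the gene upward in the tumor relative to the spleen. Of the 53801 features listed, 8687 genes were tested, those whose mean passed 10 TPM in 1 or more of the 4 groups, in 27 of the 28 samples described. The 4 groups were splenic Treg cells after IgG2a (n = 7) and after αPD1 + αGITR (n = 8), and GBM Treg cells after IgG2a (n = 5) and after αPD1 + αGITR (n = 7). Each n counts libraries, and some libraries of a group share a label number. These are spleen_79_a to spleen_79_d (control), and spleen_70_a to spleen_70_c, spleen_72_b and spleen_72_c (treated). Among treated tumors they are tumor_70_a and tumor_70_b, and tumor_73_a and tumor_73_b. The sources do not settle whether these share a mouse. All mice were C57BL/6, of both sexes and of an age not given in the sources used here, and all, controls included, carried CT2A tumors, a single murine glioma cell line that bears the reporters GFP and GLUC, in the forebrain. They received 4 doses of 250 µg at intervals of 3 days, of either IgG2a isotype control or the antibodies RMP1-14 (αPD1) and DTA-1 (αGITR), and tissue was taken 2 days after the last dose. The cells were sorted by surface markers as TCR+ CD4+ CD25hi CD127lo, with CD8+ cells gated away, and their RNA was amplified by Smart-Seq2, a full-length protocol for small numbers of cells that does not mark strand.

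Treg cells are CD4 T cells that hold back other T cells and depend on the transcription factor Foxp3. GITR, the product of *Tnfrsf18*, is a co-stimulatory receptor that Treg cells carry at a high level, and PD-1, the product of *Pdcd1*, is an inhibitory receptor of activated T cells. Treg cells in tumors are known for a more activated state than those in lymphoid organs, with higher levels of both receptors.

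The markers of the sort were present. *Foxp3* was listed at 21.5 to 440.4 TPM and was above 0 in all 27 libraries, and *Cd3e*, *Cd4* and *Il2ra* were also listed above 0 in each, while *Cd8a* stayed at or below 6.15 TPM. A pair of GBM IgG2a libraries stood apart. Library tumor_369_a had 7702 genes above 1 TPM, the fewest of all 27, and its median log2(TPM + 1) over the genes tested was 1.41 where the other GBM IgG2a libraries had at least 3.69. Library tumor_79_a held the most macrophage and microglia RNA, with a summed 18249 TPM over 22 marker genes where the group's median was 813 TPM, and with *C1qa*, a complement gene of macrophages, at 696 TPM, beside 122 TPM in tumor_369_a. The control mean of the tumor rests on 5 libraries, so the results were also computed without these, as given beside them. The depth of the libraries is unknown because TPM keeps no read number, so the spread between libraries is the only error available. Genes of the housekeeping list were at 0 in 4 of 486 values, so a value of 0 is described only as listed at 0.

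No gene passed an adjusted p of 0.05 for the interaction (limma, Benjamini-Hochberg), and 1056 of the 8687 genes had an unadjusted p under 0.05, which is 12.2% of those tested. Of these, 591 (6.8%) were positive and 465 (5.35%) negative. The smallest interaction among them was 1.42 in size and their median size was 2.59, on the log2(TPM + 1) scale. With the median standard error of 1.10, a 95% interval extends 2.28 to either side, so that differences of less than about this size were not detectable for most genes. The interaction was above 0 for 63.5% of all genes, with a median of 0.45 (SD of the same contrast between library medians 0.66). The shift depended on the scaling: with TMM-type scaling factors the median over all genes was -0.03, and with quantile normalization it was 0.11. The share of positive genes among those at p under 0.05 was 56.0%, against 37.5% with TMM-type factors and 42.2% with quantile normalization.

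Within the tumor alone, 1387 genes (16%) had an unadjusted p under 0.05 in the same fit, 986 (11.4%) upward and 401 (4.62%) downward. In the spleen alone there were 326 (3.75%), with 199 (2.29%) upward and 127 (1.46%) downward. The median treatment effect was 0.56 in the tumor and 0.13 in the spleen. Genes with a positive interaction had a median effect of 1.94 in GBM and -0.84 in splenic Treg cells. In 558 of these 591 genes (94.4%) the effects in the 2 tissues had opposite signs, which was so for 53.3% of all genes tested. The contrast itself favors opposite signs, so this share is a description. A tumor effect at p under 0.05 without one in the spleen was present in 360 of the positive genes (60.9%), a splenic effect without one in the tumor in 58 (9.81%), and both in 25. The negative genes had a median effect of -1.72 in GBM and 0.65 in splenic Treg cells. Opposite signs were present in 461 of these 465 (99.1%). In 335 (72.04%) the tumor effect alone was at p under 0.05, in 30 the splenic effect alone and in 1 both. Across all genes tested, the effects in tumor and spleen had a Pearson correlation of -0.14 and a Spearman correlation of -0.14. This is across genes, which share their libraries and are not independent replicates.

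**Figure D1:**
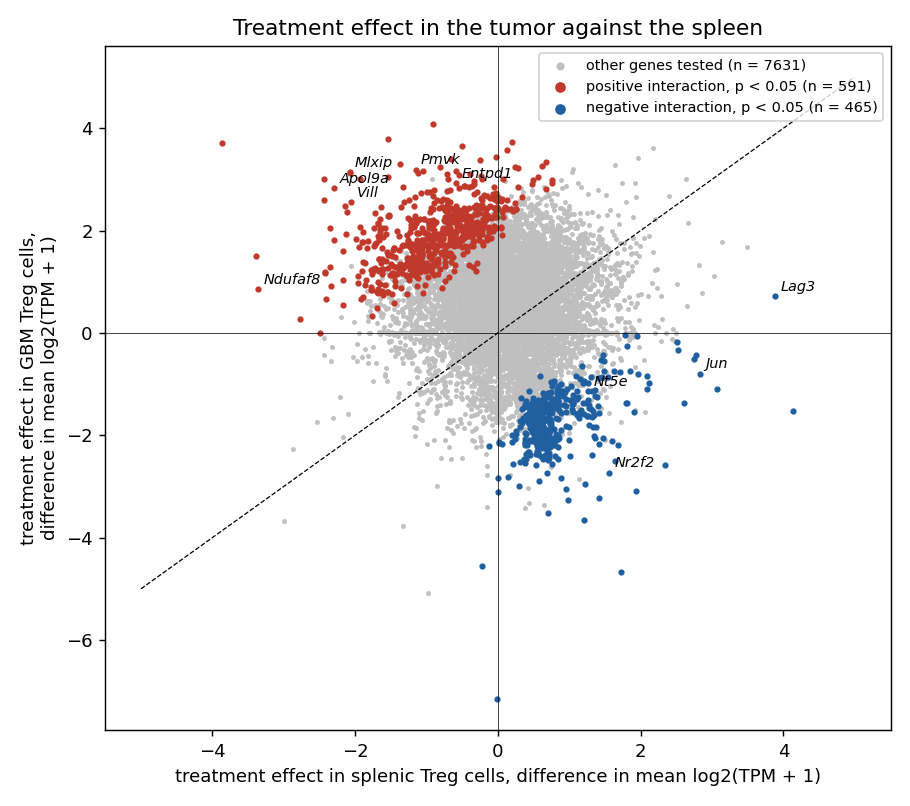
Treatment effect (difference in mean log2(TPM + 1), αPD1 + αGITR minus IgG2a) in GBM Treg cells on the vertical axis and in splenic Treg cells on the horizontal axis, 1 point per gene tested (8687), with genes at an unadjusted interaction p under 0.05 in red (591 positive) and blue (465 negative). The dashed line marks equal effects in both tissues, and the called genes lie away from it toward the upper left and the lower right.

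The 12 positive genes with the lowest p, predicted and non-coding symbols left out, had interactions of 3.87 to 5.34 on the log2(TPM + 1) scale and adjusted p of 0.119 to 0.314 (limma, over 8687 genes). They are *Vill*, *Apol9a*, *Mlxip*, *Pmvk*, *Mgat2*, *Mrps34*, *Zbtb42*, *Ndufaf8*, *Mrs2*, *Btbd19*, *Bloc1s4* and *Poldip2*. All 12 kept an unadjusted p under 0.05 when any 1 of the 27 libraries was left out and under every other setting in which they were tested (15 for 6 of the genes and 14 for the other 6, which a filter on every group mean removed), among them the fit without both libraries that stand apart, where the interactions were 2.73 to 4.38. They were picked for their low p, so this is not independent evidence for them. Below, counts of treated libraries beyond all controls are descriptions, as the share of all genes that separate in this way is not given here. Over all genes tested, tumor_369_a was under 1 TPM in 43.7%, which bears on such counts in the tumor.

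*Vill* (chromosome 9 from 119052778 to 119071525), which encodes a villin-like protein of the actin-binding gelsolin family, had the lowest p of all genes. It was listed in splenic Treg cells at 1.10 to 21.6 TPM (median 5.51) after IgG2a and at 0 to 1.95 TPM (median 0.910) after treatment. In GBM Treg cells the 5 IgG2a libraries read 0.430, 6.18, 5.46, 12.9 and 0 TPM (in the order tumor_369_a, tumor_76_a, tumor_77_a, tumor_78_a and tumor_79_a, kept below), and the 7 treated ones 11.4 to 35.2 TPM (median 25.3). The groups overlapped in both tissues: 5 of 7 treated tumors lay above every control tumor, and 5 of 8 treated spleens lay below every control spleen. The interaction was 4.61 ± 0.94 (SE), from an effect of 2.55 in the tumor and -2.06 in the spleen (limma, adjusted p = 0.119), and 3.47 without both libraries that stand apart. *Apol9a* (chromosome 15 from 77403789 to 77411135), an interferon-inducible gene of the apolipoprotein L family, followed the same pattern. Its reads can be split with its close copy *Apol9b*, so its level is uncertain. It was listed at 1.5 to 14.6 TPM (median 4.96) in control spleens and at 0 to 3.03 TPM (median 0.290) in treated ones. The GBM IgG2a libraries read 0.110, 0.20, 12.8, 4.45 and 0.0200 TPM, and the treated tumors 0.340 to 52.8 TPM (median 31.0). Thus 5 of 7 treated tumors lay above all controls and 7 of 8 treated spleens below all controls, with the treated tumors tumor_72_a (0.340 TPM) and tumor_80_a (12.1 TPM) inside the range of the controls. The interaction was 5.13 ± 1.07 (SE; limma, adjusted p = 0.119), and 4.30 without both libraries that stand apart.

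*Pmvk* (chromosome 3 from 89454541 to 89469013), phosphomevalonate kinase of the sterol pathway, was the only one of the first 4 genes whose tumor groups did not overlap. All 7 treated tumors (10.03 to 34.0 TPM, median 14.2) lay above all 5 controls (0.290, 0, 4.59, 3.92 and 0 TPM). Control spleens were at 1.18 to 14.5 TPM (median 4.97) and treated spleens at 0 to 10.8 TPM (median 1.29), and these overlapped. The interaction was 4.35 ± 0.97 (SE; limma, adjusted p = 0.145), or 3.78 without both libraries. *Mlxip* (chromosome 5 from 123394798 to 123457932) encodes MondoA, a glucose-sensing transcription factor. It was listed at 6.21 to 62.6 TPM (median 39.1) in control and 0.15 to 60.9 TPM (median 6.5) in treated spleens. The control tumors read 0.170, 25.2, 38.1, 5.10 and 0.430 TPM and the treated tumors 34.6 to 150 TPM (median 44.6). Both tissues overlapped, with 5 of 7 treated tumors above and 4 of 8 treated spleens below all their controls, and the interaction was 5.21 ± 1.13 (SE; limma, adjusted p = 0.136), or 3.68 without both libraries.

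*Ndufaf8* (chromosome 11 from 120098928 to 120100705), an assembly factor of respiratory complex I, differed from these in that the spleen carried the interaction. All 8 treated spleens (0 to 14.3 TPM, median 1.24) lay below all 7 control spleens (14.6 to 53.4 TPM, median 35.2), an effect of -3.36. The control tumors read 0, 24.1, 7.43, 25.4 and 108 TPM and the treated tumors 12.8 to 42.1 TPM (median 27.8), so that no treated tumor lay outside the range of the controls. Its interaction was 4.22 ± 1.13 (SE; limma, adjusted p = 0.314), and 3.91 without both libraries that stand apart. For *Mrs2*, a magnesium channel of the mitochondrial inner membrane, and *Mrps34*, a protein of the small mitochondrial ribosomal subunit, the tumor carried more of it. All 7 treated tumors lay above all 5 controls for both. *Mrs2* was at 48.0 to 123 TPM against 0.770, 36.5, 13.5, 1.04 and 1.20 TPM, and *Mrps34* at 54.9 to 168 TPM against 1.84, 21.1, 13.8, 41.2 and 0 TPM. The interactions were 5.34 for *Mrs2* and 4.67 for *Mrps34*. *Mgat2*, a Golgi enzyme that branches N-glycans, had 6 of 7 treated tumors (50.8 to 175 TPM) above its controls (0.880, 33.4, 56.0, 46.7 and 0 TPM) and an interaction of 5.20. Without both libraries the interactions of these 3 were 4.38, 3.14 and 3.18 in the order *Mrs2*, *Mrps34* and *Mgat2*. The other members of the 12 were *Zbtb42* (3.87), *Btbd19* (4.41), *Bloc1s4* (5.03) and *Poldip2* (4.07). In tumor_369_a each of the 12 was listed at 1.84 TPM or less, and in tumor_79_a 11 of the 12 were at 2.38 TPM or less, *Ndufaf8* being the exception.

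The 12 negative genes with the lowest p had interactions of -4.29 to -2.65, all with an adjusted p of 0.314 (limma). They are of mixed kinds: *Nr2f2*, *Zfp580* and *Zfp488* encode DNA-binding proteins, *Olfr1328* and *Olfr639* olfactory receptors, *Cd300ld2* and *Ms4a6c* surface proteins of families known from myeloid cells, *Cldn34c1* a claudin, *Ssbp2* a single-stranded DNA-binding cofactor, *Fgd4* an activator of the GTPase Cdc42, *Myo5a* an actin motor and *Gsta3* a glutathione transferase. The olfactory receptor, claudin, *Cd300* and *Gsta* genes have near copies, among which reads can be split. *Ssbp2*, *Fgd4*, *Olfr639* and *Zfp488* had the same extreme libraries. Each was highest in tumor_369_a among control tumors and in tumor_73_b among treated ones, and lowest in spleen_73_a among treated spleens. They are therefore not separate observations, and whether they follow one quantity of the libraries was not tested. *Nr2f2* (chromosome 7 from 70351944 to 70366735), the orphan nuclear receptor COUP-TFII, was listed at 0 to 0.390 TPM in all control spleens and at 0 to 20.6 TPM (median 2.03) in treated spleens, 6 of 8 of them above every control. The control tumors read 38.2, 6.39, 16.1, 1.31 and 27.7 TPM, whereas 4 of 7 treated tumors were listed at 0 and the highest was 8.26 TPM. The interaction was -4.29 ± 1.06 (SE; limma, adjusted p = 0.314), with effects of -2.73 in the tumor and 1.56 in the spleen. Without both libraries that stand apart, the mean of the control tumors no longer passed 10 TPM, so *Nr2f2* was not tested, and the same held for *Olfr1328*, *Cd300ld2*, *Ms4a6c* and *Gsta3*. All of these passed the filter through the control tumors alone, so lower treated tumors are partly set by the filter.

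*Ssbp2* (chromosome 13 from 91460283 to 91703429) had the highest level in control tumors among these 12 genes. Its 5 control tumors read 319, 128, 133, 110 and 115 TPM and all 7 treated tumors, at 11.3 to 109 TPM (median 25), were below them. Control spleens (34.1 to 181 TPM, median 114) and treated spleens (28.2 to 270 TPM, median 141) overlapped. The interaction was -2.80 ± 0.87 (SE; limma, adjusted p = 0.314) and -2.55 without both libraries that stand apart. *Fgd4* showed the same shape, with control tumors at 171, 68.1, 74.5, 69.5 and 63.7 TPM, treated tumors at 7.03 to 72.2 TPM (median 13.1), 6 of 7 below all controls, and an interaction of -2.91. *Zfp580* was listed at 0 in 5 of 7 treated tumors, where the controls read 19.9, 11.2, 2.95, 8.39 and 6.40 TPM, and its interaction was -3.87. Without both libraries *Fgd4* had an interaction of -2.69 and *Zfp580* one of -3.60. *Ms4a6c* had 134 TPM in tumor_369_a and 110 TPM in tumor_79_a against 1.19 to 5.19 TPM in the remaining 3 control tumors, and the treated tumors, at 0.280 to 3.22 TPM, overlapped with those 3. The part of macrophage RNA in its interaction of -3.19 was not tested. The interactions of *Cldn34c1* (-3.09), *Olfr1328* (-2.99), *Cd300ld2* (-2.92), *Myo5a* (-3.16), *Zfp488* (-2.65), *Olfr639* (-2.79) and *Gsta3* (-2.90) lay in the same range, and those of *Myo5a* (-1.56) and *Ms4a6c* (-1.36) had a p above 0.05 with library weights, among other settings, as *Myo5a* also did without both libraries (-1.89).

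**Figure D2:**
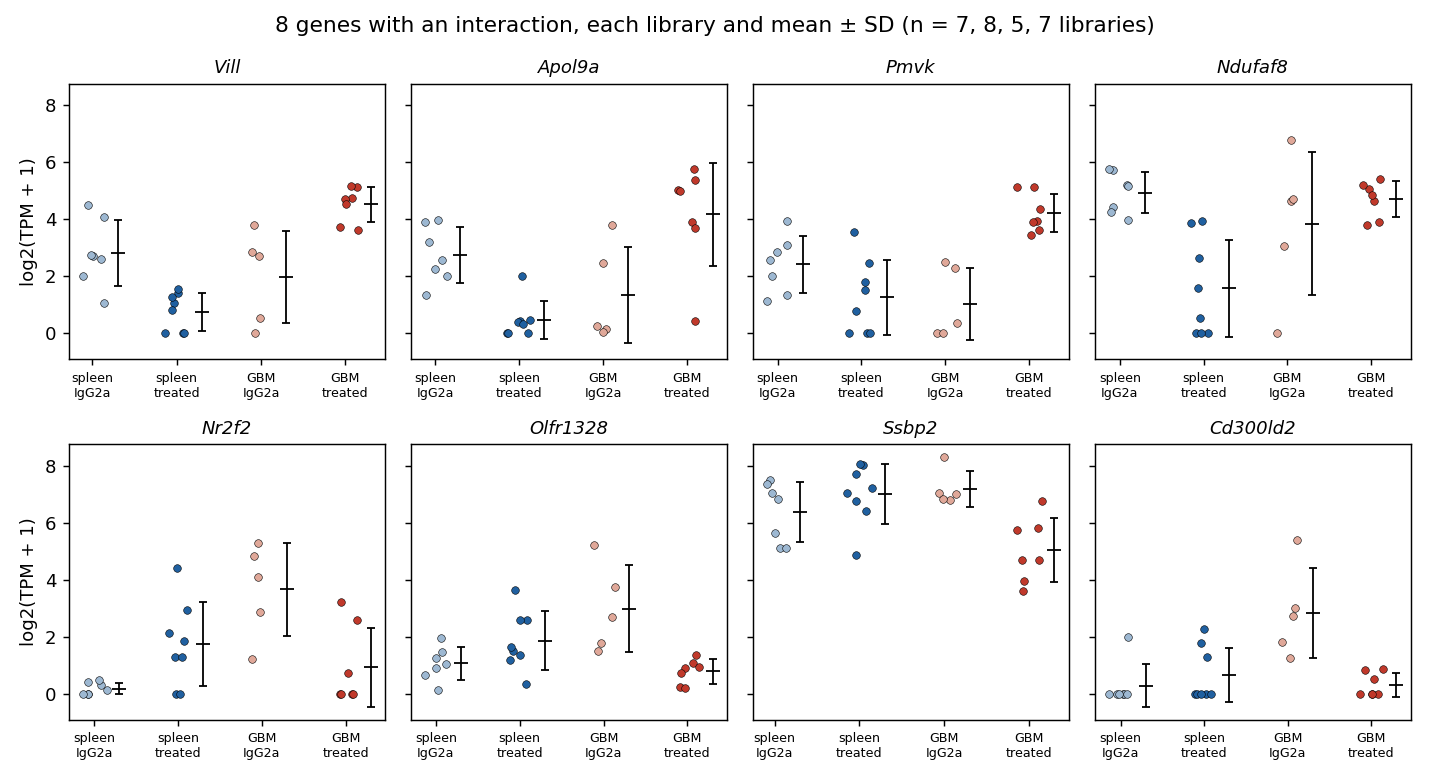
log2(TPM + 1) of 4 genes with a positive (upper row) and 4 with a negative interaction (lower row) in each library of the 4 groups, with the mean and SD at the right of each group (n = 7 control and 8 treated spleens, 5 control and 7 treated tumors). In the upper row treated tumors are high and treated spleens low, with *Ndufaf8* separated in the spleen alone, and in the lower row treated tumors lie below all control tumors for *Olfr1328*, *Ssbp2* and *Cd300ld2*, while for *Nr2f2* they overlap. *Olfr1328*, *Cd300ld2* and *Nr2f2* passed the filter of 10 TPM through the control tumors alone, so lower treated tumors are partly set by the filter.

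The promoters of 4 of these genes are shown because they lead the comparison in its different forms, *Vill* and *Apol9a* upward in the tumor and downward in the spleen, *Ndufaf8* downward in the spleen, and *Nr2f2* the reverse. Each is the RefSeq window of 300 bases (250 before to 50 after the annotated start, GRCm38.p6), read 5′ to 3′ along the gene's strand, with capitals at every match on either strand to the GC box (GGGCGG), the CAAT box (CCAAT), the TATA box (TATAAA), the ETS motif (CCGGAAG) or the AP-1 motif (TGACTCA). None of the matches printed overlaps another.
Vill, chr9:119052528-119052827, plus strand: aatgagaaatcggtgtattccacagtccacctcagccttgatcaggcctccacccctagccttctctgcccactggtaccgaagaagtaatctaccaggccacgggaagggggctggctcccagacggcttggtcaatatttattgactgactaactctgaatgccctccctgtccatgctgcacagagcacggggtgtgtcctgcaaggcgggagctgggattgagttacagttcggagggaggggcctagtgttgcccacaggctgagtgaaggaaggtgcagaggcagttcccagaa
Apol9a, chr15:77411031-77411330, minus strand: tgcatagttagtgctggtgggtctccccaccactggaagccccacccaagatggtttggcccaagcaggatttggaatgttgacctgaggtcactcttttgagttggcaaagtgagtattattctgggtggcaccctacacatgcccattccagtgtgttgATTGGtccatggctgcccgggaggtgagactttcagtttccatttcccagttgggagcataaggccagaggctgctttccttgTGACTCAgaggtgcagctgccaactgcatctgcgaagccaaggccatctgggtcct
Ndufaf8, chr11:120098684-120098983, plus strand: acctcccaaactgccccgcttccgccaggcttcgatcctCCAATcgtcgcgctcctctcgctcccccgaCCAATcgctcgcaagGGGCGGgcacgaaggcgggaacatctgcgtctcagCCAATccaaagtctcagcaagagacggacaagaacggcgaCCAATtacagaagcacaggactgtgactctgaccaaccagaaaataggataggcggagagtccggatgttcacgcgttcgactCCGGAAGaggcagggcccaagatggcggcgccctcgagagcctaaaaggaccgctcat
Nr2f2, chr7:70366697-70366996, minus strand: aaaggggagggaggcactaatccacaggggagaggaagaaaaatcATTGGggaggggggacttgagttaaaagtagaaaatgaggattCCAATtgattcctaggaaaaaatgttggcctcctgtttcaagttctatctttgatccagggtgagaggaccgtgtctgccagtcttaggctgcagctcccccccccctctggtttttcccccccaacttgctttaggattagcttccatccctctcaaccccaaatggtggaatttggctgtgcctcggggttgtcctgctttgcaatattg
The *Vill* window held none of the 5 motifs and 7 CG pairs. *Apol9a* had 1 CAAT box and 1 AP-1 motif, with 2 CG pairs. *Ndufaf8* had 4 CAAT boxes, 1 GC box and 1 ETS motif, with 27 CG pairs. *Nr2f2* had 2 CAAT boxes and 2 CG pairs. Among all 27025 promoters of the same length, the CAAT box was present in 37.9%, the GC box in 35.9%, the TATA box in 14.2%, the ETS motif in 9.12% and the AP-1 motif in 5.17%. Among the 5647 protein-coding genes tested that have a promoter in the table, the shares were 38.7%, 65.95%, 6.89%, 22.4% and 3.26% in the same order. No motif is present in all 4 windows, and a match is a description of letters only.

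Positive and negative interactions fell on different kinds of annotated genes. Protein-coding genes were 81.7% of the genes tested, 91.5% of the positive and 34.4% of the negative genes. The rest of the negative genes were mainly pseudogenes (105), genes marked TEC, a GENCODE class of single-exon loci that await experimental evidence (81), and long non-coding RNA genes (76). Of the 185 TEC genes tested, 81 were negative at p under 0.05, which is 43.8% against 5.35% of all genes, and none was positive. The 81 had effects of -2.81 to -0.43 in the tumor and 0.14 to 1.47 in the spleen, of which 60 were at p under 0.05 in the tumor and 1 in the spleen. *Gm42519* (chromosome 5 from 45243652 to 45247307), the one with the lowest p, was listed at 38.8 to 808 TPM in control spleens, 73.8 to 963 TPM in treated spleens, 327 to 1271 TPM in control tumors and 46.8 to 476 TPM in treated tumors. Symbols of the form Gm and a number made up 60.6% of the negative and 2.88% of the positive genes. A single exonic block, the mark of a gene without introns, was present in 50.8% of the matched negative genes, 5.34% of the positive genes and 13.9% of all. The median interaction was 0.61 for protein-coding genes, -0.87 for pseudogenes, -0.97 for long non-coding genes and -1.72 for TEC genes. Among the 7100 protein-coding genes alone, 701 had a p under 0.05, of which 77.2% were positive. When the libraries were rescaled and tested without predicted and non-coding symbols, an alternative chosen after seeing the data, 777 of 11930 genes (6.51%) had a p under 0.05, of which 57.7% were positive, and the median interaction was 0.096. Without both libraries that stand apart, 49 of 158 TEC genes (31.0%) and 88 of 401 pseudogenes (21.9%) were still negative at p under 0.05, beside 92 of 6551 protein-coding genes (1.40%), while the number of positive protein-coding genes was 130 in place of 541.

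Summed over each library, the TEC genes took 8087 to 23197 TPM (median 11281) in control tumors and 2255 to 9490 TPM (median 4444) in treated ones. In spleens they took 2280 to 17358 TPM (median 6075) after IgG2a and 2371 to 25321 TPM (median 11194) after treatment. The TEC sum was highest in tumor_369_a among control tumors and in tumor_73_b among treated ones, and lowest in spleen_73_a among treated spleens. *Ssbp2*, *Fgd4*, *Olfr639* and *Zfp488* had the same extremes. The interaction of this sum was -1.85 on the log2 scale, and that of the summed Gm symbols was -1.22. Without both libraries that stand apart, these were -1.54 and -1.06. Both classes were singled out for their share of the negative genes in this same contrast, so their sums are given as a description with no test. In a two-sided exact permutation test of treatment labels within each tissue, the number of genes above 1 TPM did not pass (p = 0.643), nor did the share of the 10 most abundant features (exact p = 0.843) or the summed TPM of protein-coding genes (exact p = 0.645).

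**Figure D3:**
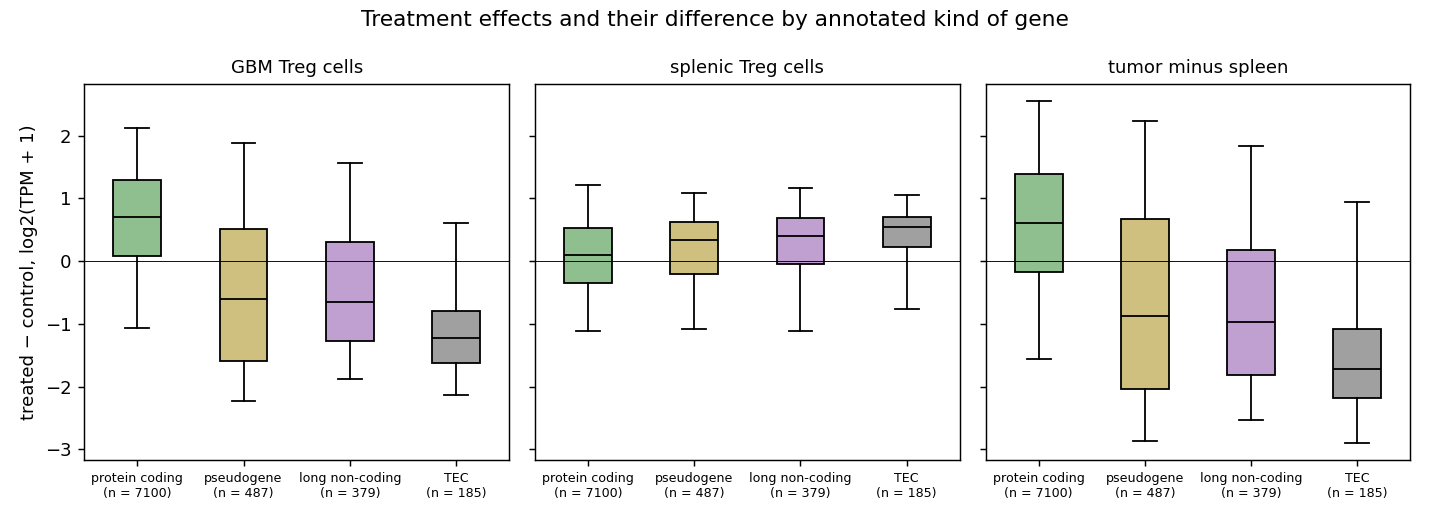
Treatment effects in GBM and in splenic Treg cells and their difference (log2(TPM + 1)) for 4 annotated kinds of gene, with boxes for the middle 50% of genes, lines for the median and whiskers from the 5th to the 95th percentile. Protein-coding genes have a median interaction of 0.61 and TEC genes one of -1.72.

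Among the receptors that the antibodies address, the interaction of *Tnfrsf18* was 0.50 ± 1.17 (SE) and that of *Pdcd1* was -1.82 ± 1.03 (SE), neither at p under 0.05 (limma, adjusted p = 0.893 and 0.492). *Pdcd1* had an unadjusted p under 0.05 in 6 of 15 other settings, TMM-type factors among them (-2.52), and without spleen_79_b (-2.17) or spleen_72_b (-2.37). *Tnfrsf18* (chromosome 4 from 156026164 to 156028895) was listed at 5.92 to 158 TPM (median 24.1) in control spleens and 0 to 278 TPM (median 33.6) in treated ones. The control tumors read 145, 295, 244, 187 and 348 TPM and the treated tumors 186 to 515 TPM (median 450). Its direction was negative when spleen_72_b was left out (-0.20) and with a block for the full label (-0.85). *Pdcd1* (chromosome 1 from 94038305 to 94052553) was listed at 0 to 31.1 TPM (median 7.95) in control and 0.620 to 59.2 TPM (median 34.9) in treated spleens, with 5 of 8 treated above every control. In the tumor the controls read 284, 129, 145, 122 and 89.5 TPM and the treated libraries 43.2 to 242 TPM (median 125), which overlapped. The exact permutation test of its interaction gave p = 0.0777.

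*Lag3* (chromosome 6 from 124904361 to 124911705), an inhibitory receptor that binds MHC class II, showed a negative interaction that came from the spleen. It was listed at 0 to 39.2 TPM (median 0.270) in control spleens and 7.98 to 179 TPM (median 47.9) in treated ones, with 4 of 8 above every control. The tumors already stood at 3.78, 329, 481, 258 and 48.7 TPM after IgG2a and were at 22.6 to 372 TPM (median 267) after treatment. Its effect was 3.89 ± 0.89 (SE) in the spleen and 0.72 ± 1.01 (SE) in the tumor, and the interaction was -3.17 ± 1.35 (SE; limma, adjusted p = 0.345; exact permutation p = 0.0818). Without both libraries that stand apart the interaction was -4.96, and over the leave-one-out fits it ranged from -4.26 to -2.60 and had a p above 0.05 in 4 of 27. With a pseudocount of 10 in place of 1 it was -1.49, with an unadjusted p above 0.05.

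The enzymes that make adenosine outside the cell went in opposite directions. *Entpd1* (chromosome 19 from 40612366 to 40741602), which encodes CD39 and degrades ATP, had all 7 treated tumors (94.7 to 174 TPM, median 155) above all 5 controls (3.94, 70.1, 64.7, 62.8 and 0.450 TPM). Spleens overlapped at 0.720 to 42.2 TPM (median 15.3) after IgG2a and 0 to 28.7 TPM (median 9.72) after treatment. The interaction was 3.51 ± 1.19 (SE; limma, adjusted p = 0.314; exact permutation p = 0.0124), but 1.65 with an unadjusted limma p of 0.137 without both libraries that stand apart. *Entpd1* was named for its low p in this same contrast, so the permutation p is not independent evidence. *Nt5e* (chromosome 9 from 88327197 to 88372092), which encodes CD73 and makes adenosine from AMP, read 146, 49.95, 29.2, 59.4 and 34.1 TPM in control tumors and 8.28 to 52.2 TPM (median 19.9) in treated ones, 4 of 7 below every control. Treated spleens (2.00 to 55.5 TPM, median 21.6) overlapped with control spleens (0 to 28.1 TPM, median 11.04). Its interaction was -2.41 ± 1.04 (SE; limma, adjusted p = 0.356; exact permutation p = 0.0180), and -2.14 without both libraries, where the unadjusted limma p was 0.0654. Its unadjusted p was also above 0.05 in 3 of 27 fits with 1 library left out.

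For *Foxp3* (chromosome X from 7573644 to 7595245) the interaction was 0.89 ± 0.81 (SE; limma, adjusted p = 0.685), and it was 0.53 without spleen_72_b and 0.32 with TMM-type factors. It was listed at 54.4 to 355 TPM in control and 21.5 to 364 TPM in treated spleens, and at 180, 161, 184, 240 and 116 TPM in control and 165 to 440 TPM in treated tumors, 5 of 7 above every control. The list of the Th1 program, which directs interferon-γ-producing T cells, had a median of -0.11. It ranged from -0.18 to 0.30 when 1 library was left out and from -0.54 to 0.34 over the other settings. In this list 1 of 19 genes tested was positive at p under 0.05 and none negative. That gene was *Tnf* (chromosome 17 from 35199381 to 35202007), a cytokine gene. Control tumors read 0.230, 7.00, 17.4, 8.22 and 0 TPM and treated tumors 8.12 to 61.6 TPM (median 20.8), 5 of 7 above all controls. Spleens were at 1.95 to 19.98 TPM after IgG2a and 0 to 22.9 TPM after treatment. Its interaction was 2.46 ± 1.13 (SE; limma, adjusted p = 0.380; exact permutation p = 0.0537), and 1.13 (unadjusted limma p = 0.32) without both libraries that stand apart, 1 of 7 among 14 other settings in which its call was lost. *Tbx21*, the master regulator of Th1 cells, had an interaction of 0.86 ± 1.35 (SE), *Il12rb1*, a chain of the IL-12 receptor, of 1.05 ± 1.15 and *Cxcr3*, a Th1 chemokine receptor, of 1.60 ± 1.10. None of these 3 was at p under 0.05, and *Tbx21* turned negative with TMM-type factors (-0.11) and without tumor_369_a (-0.02), as *Il12rb1* did without both libraries (-0.01), having been at 0.01 without tumor_369_a alone. *Cxcr3* was at 0.66 without tumor_369_a. All 7 treated tumors lay above all 5 controls for *Il12rb1*, with a tumor effect of 1.72 beside 0.66 in the spleen. This is a description, as the share of all genes that separate in this way is not given here. *Tgfb1*, which encodes a cytokine through which Treg cells suppress, had effects of -0.16 in the tumor and -1.52 in the spleen and an interaction of 1.36 ± 1.11, which was 0.63 without tumor_369_a. For *Ccr2*, a chemokine receptor, the interaction was -1.60 ± 0.87, not at p under 0.05, but it was so in 8 of 14 other settings, with TMM-type factors at -2.36, and without spleen_70_c (-1.80) or tumor_76_a (-1.88).

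Other signalling genes at p under 0.05 in the interaction included members of the IL-2, NF-κB and T cell receptor lists. *Pim2*, a kinase gene induced by STAT5, was at 2.79 to 55.5 TPM (median 18.1) in control spleens and 0 to 21.6 TPM (median 3.02) in treated ones, with an interaction of 2.94 that was 3.13 without both libraries that stand apart. *Socs2*, a feedback inhibitor of cytokine receptors, had one of 2.60, *Nfkbid* and *Bcl3*, atypical IκB proteins, had 2.62 and 2.70, and *Ubash3a*, an inhibitor of T cell receptor signalling, had 2.80. *Klf2*, a transcription factor of resting T cells, was at 0.30 to 45.3 TPM (median 14.0) in control and 0.07 to 13.3 TPM (median 1.62) in treated spleens, and had an interaction of 2.87. *Stx11*, which encodes a syntaxin of granule release, had one of 2.96. Without both libraries that stand apart, all of these genes other than *Pim2* had an unadjusted p above 0.05, at 0.60 (*Nfkbid*), 0.99 (*Socs2*), 1.54 (*Ubash3a*), 2.02 (*Bcl3*), 2.12 (*Stx11*) and 2.30 (*Klf2*), and *Pim2* had one in 2 of 14 other settings. With tumor_369_a alone left out *Socs2* was at 1.56 and *Stx11* at 1.92, and with tumor_79_a alone left out *Ubash3a* was at 1.70, each with an unadjusted p above 0.05.

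Of 16 immediate early genes tested, *Jun* and *Ier2* were at an unadjusted p under 0.05. Their interactions had opposite signs, and neither passed an adjusted p of 0.05. *Jun* (chromosome 4 from 95049034 to 95052222), a subunit of AP-1, was at 0 to 45.1 TPM (median 0.960) in control spleens and 0.120 to 136 TPM (median 29.95) in treated ones. In the tumor it overlapped, at 9.00, 14.95, 22.6, 66.2 and 64.6 TPM after IgG2a and 0 to 54.2 TPM (median 19.95) after treatment. Its interaction was -3.63 ± 1.40 (SE; limma, adjusted p = 0.325) and -3.71 without both libraries. *Ier2* had an interaction of 3.08, and 5 of 8 treated spleens lay below every control spleen. Without both libraries it was 1.63 and without tumor_79_a alone 1.66, with an unadjusted p above 0.05 in both. The chemokine receptor gene *Cxcr5*, which guides T cells to B cell follicles, had one of -2.60. It was listed at 0.350, 3.12, 6.92, 3.06 and 19.97 TPM in control tumors and at 0 in 4 of 7 treated tumors, while spleens were at 4.09 to 54.8 TPM (median 17.5) after IgG2a and 11.4 to 125 TPM (median 39.3) after treatment. Without both libraries it was -2.57, and with libraries of one number averaged it was -1.78, with an unadjusted p above 0.05.

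The gene lists were counted against the background of 6.8% positive and 5.35% negative genes, and their medians against 0.45. No list had more than 2 members past the threshold in 1 direction. Mitochondrially encoded genes stood at the lower end of the 21 pathway lists: none of 15 had an interaction above 0 and their median was -1.24, with none at p under 0.05. That median was 0.07 without both libraries that stand apart. In those libraries the mitochondrially encoded genes together took 63987 TPM (tumor_369_a) and 67083 TPM (tumor_79_a), where the group's median was 16616 TPM. By contrast, the nuclear genes of oxidative phosphorylation had an interaction above 0 in 62 of 71, with a median of 0.77 and 1 at p under 0.05, *Uqcrq* of complex III (2.13, and 1.29 without both libraries). Splicing factors and hnRNPs (median 0.82, 2 of 44 positive at p under 0.05, *Snrpa* and *Hnrnpab*), proteasome subunits (0.78, 1 of 32, *Psmd3*), genes of glycolysis and the hypoxia response (0.75, 2 of 24, *P4ha1* and *Higd1a*), T cell receptor signalling (0.73, 2 of 30) and resting and homing genes (0.89, 1 of 16) also had medians above that of all genes. Cytosolic ribosomal proteins (0.46, none of 78) and the housekeeping list (0.43, 1 of 17, *Tbp*) were near it. The call of *Higd1a* was lost in 10 of 15 other settings and in 14 of 27 fits with 1 library left out, and that of *Uqcrq* in 10 of 27 such fits. Without both libraries that stand apart, *Snrpa* (2.17), *Hnrnpab* (2.00), *Psmd3* (1.82), *Tbp* (1.74) and *Uqcrq* also had an unadjusted p above 0.05. Without both libraries the median of all genes was 0.36, and the lists that had stood above it were at 0.65 (splicing), 0.49 (proteasome), 0.43 (glycolysis), 0.52 (T cell receptor signalling and resting genes) and 0.74 (oxidative phosphorylation). With tumor_369_a alone left out, where the median of all genes was 0.23, the proteasome median was 0.13, that of splicing factors 0.48 and that of T cell receptor signalling 0.47. Without spleen_79_b, where it was 0.24, glycolysis was at 0.36, oxidative phosphorylation at 0.43, ribosomal proteins at 0.19 and housekeeping genes at 0.17.

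Lower medians were found for interferon-stimulated genes (0.09, none of 42 at p under 0.05), effector Treg genes (0.04, none of 22), inhibitory and co-stimulatory receptors (-0.06, 1 positive and 2 negative of 15) and chemokines and their receptors (-0.30, 1 negative of 16). With 1 library left out they ranged from -0.17 to 0.46, -0.15 to 0.39, -0.48 to 0.55 and -0.55 to -0.004 in the same order. Over the other settings the chemokine median ranged from -1.11 to 1.06. Treg identity genes had a median of 0.55 (0.15 without spleen_72_b) with none of 20 at p under 0.05, and MHC class I genes 0.42 with 1 of 22, *Tapbpl*, whose call was lost in 10 of 15 other settings and in 14 of 27 fits with 1 library left out. Cell cycle genes had a median effect of 1.22 in the tumor, the largest of the 21 pathway lists, and 0.42 in the spleen. Their median interaction was 0.68, with none of 43 at p under 0.05, and it was 0.08 without both libraries that stand apart and 0.22 without spleen_79_b. With TMM-type factors the medians of 9 of 27 lists with members tested turned from positive to negative, among them cytosolic ribosomal proteins (-0.10), MHC class I genes (-0.11), interferon-stimulated genes (-0.49) and housekeeping genes (-0.15), which follows the shift in the median of all genes given above.

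**Figure D4:**
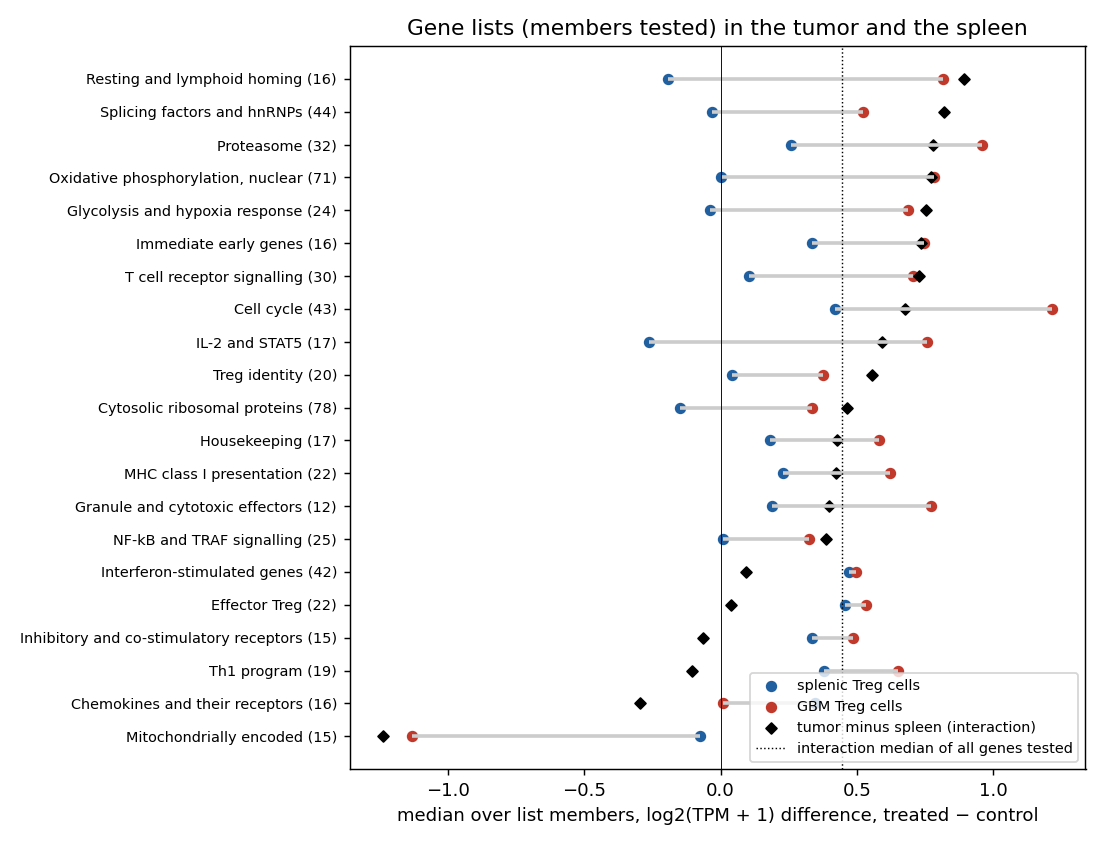
Median treatment effect of each of the 21 pathway lists in splenic (blue) and GBM (red) Treg cells and the median interaction (black diamonds), in log2(TPM + 1), with the number of members tested in brackets and the median interaction of all genes (0.45) as a dotted line. Marker lists of other cells are not drawn. Most lists have a higher median effect in the tumor than in the spleen, and the mitochondrially encoded genes lie apart at -1.24.

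The 2 libraries that stand apart moved the comparison as a whole. Without tumor_369_a, 635 genes had a p under 0.05, 43.9% of them positive, and the median interaction was 0.23. Without tumor_79_a the count was 1050. Without both, 461 of 7983 genes had a p under 0.05, 150 positive and 311 negative. Of the 591 positive genes, all were tested again and 120 (20.3%) were among those. Of the 465 negative genes, 399 were tested again and 263 (56.6%) were among those. Each gene tested again kept its direction. Library tumor_369_a was the lowest of the 5 control tumors in 50.4% of the positive genes, against 43.4% of all genes tested, and tumor_79_a in 36.4%, against 20.2%. Ties for the lowest were counted for neither library. Of the positive genes, 74.6% were under 1 TPM in tumor_369_a, against 43.7% of all, and 52.3% in tumor_79_a, against 24.4%. In tumor_76_a, tumor_77_a and tumor_78_a the shares were 8.12%, 6.43% and 5.75%, against 10.5% of all in each. For the negative genes, tumor_369_a was the highest of the 5 in 81.7%, against 25.1% of all genes, whereas tumor_79_a was the highest in 6.24%, against 34.9%, and the lowest in 50.1%, against 20.2%. Each other library left out gave between 807 and 1346 genes.

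**Figure D5:**
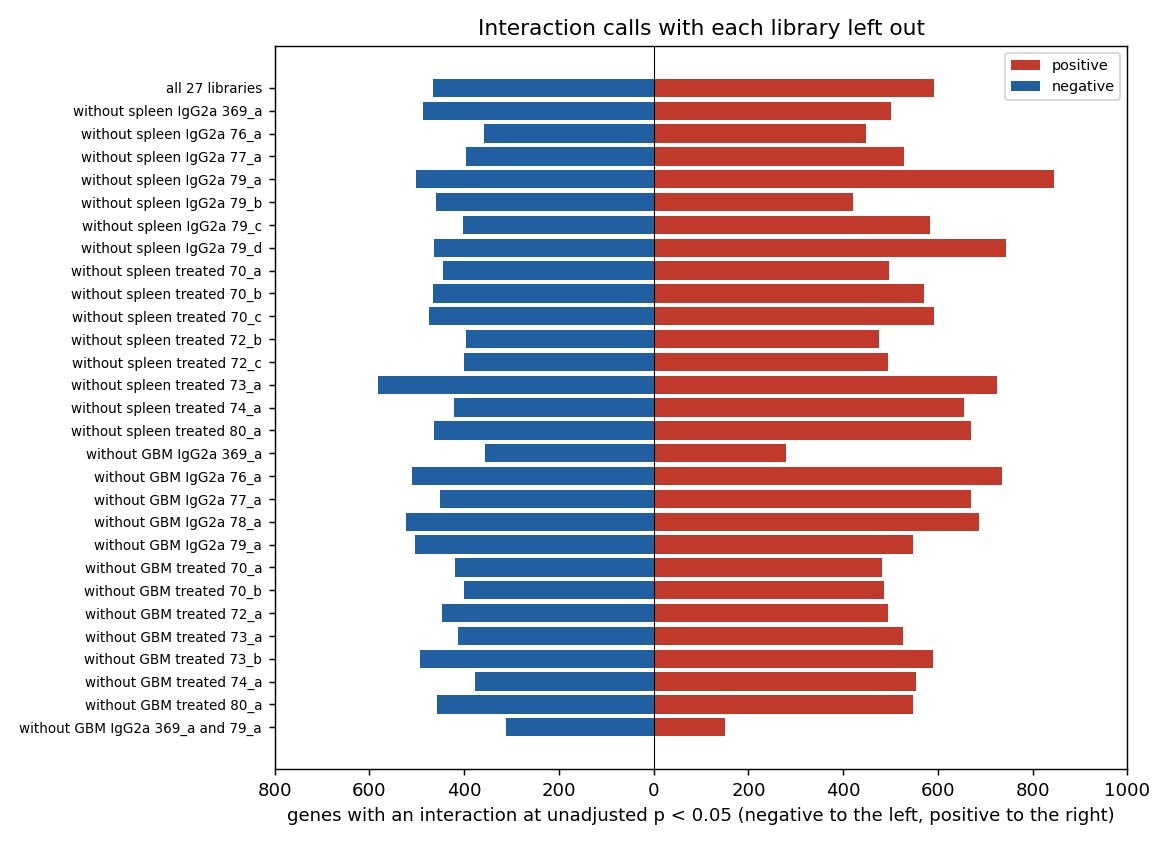
Number of genes at an unadjusted interaction p under 0.05, positive to the right and negative to the left, with all 27 libraries, with each library left out and without both GBM IgG2a libraries that stand apart. The counts are lowest without tumor_369_a (635) and without both (461).

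Markers of other cells were present at different levels in the groups. Erythroid genes, 6 of 7 tested, all had an interaction below 0, with a median of -2.78 and none at p under 0.05. Their summed level was 8.90 to 6965 TPM in control and 25.4 to 28788 TPM in treated spleens, and 1.30 to 2371 TPM in control and 0.30 to 202 TPM in treated tumors (exact permutation p = 0.229). Macrophage and microglia genes had a median of 0.10 with none of 19 at p under 0.05, and their summed level was 261 to 989 TPM in control and 55.8 to 1229 TPM in treated spleens, and 352 to 18249 TPM in control and 425 to 7810 TPM in treated tumors (exact permutation p = 0.586). Genes of neurons and glia, 3 of 14 tested, had a median of -1.84, with *Mbp*, which encodes a myelin protein, negative at p under 0.05 (-2.42, a call lost in 4 of 14 other settings and in 9 of 27 fits with 1 library left out). Their summed level was 7.02 to 41.4 TPM in control and 19.97 to 118 TPM in treated spleens, and 22 to 171 TPM in control and 17.2 to 111 TPM in treated tumors, an interaction of -1.58 (exact permutation p = 0.0526), the lowest p of the 7 marker lists. B cell genes were summed at 53.8 to 1388 TPM in spleens and 53.9 to 438 TPM in tumors. Only 2 of 12 were tested, and 1 of them, *Igkc*, was positive (3.30), a call lost in 8 of 14 other settings and in 4 of 27 fits with 1 library left out. CD8 T cell markers stayed at or below 36.6 TPM in sum and NK cell markers at or below 26.7 TPM. With 1 library left out, the medians ranged from -3.71 to -2.11 (erythroid), -0.39 to 0.81 (macrophages and microglia) and -2.34 to -0.98 (neurons and glia). Over the other settings they ranged from -3.69 to -0.13, -0.73 to 1.28 and -2.79 to -0.50 in the same order. The part of these cells in the interaction was not tested, and in bulk RNA fewer cells of a type and less RNA per cell cannot be told apart.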

How the data were processed

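Bulk Smart-Seq2 RNA-seq libraries of sorted splenic and GBM Treg cells were analyzed. By the study's methods and the submitters' processing notes, the authors demultiplexed reads with bcl2fastq, aligned them to mm10 with TopHat2 and calculated TPM with RSEM. Versions of these tools and the gene annotation are not given in the sources used here. The table deposited by the authors holds TPM plus 1 for each feature (a value of unit "other" until 1 is taken off), unfiltered, and the depth per library is unknown. Groups follow the sample labels. Of 28 samples, 27 were used. 1 column without a name was not assigned and not used, and 1 treated spleen has no column of its own.

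A value of 1 was taken off, and log2(TPM + 1) was fitted over the 4 groups with limma 3.58.1 in R 4.3.3 (lmFit, eBayes with an intensity trend), for genes whose mean passed 10 TPM in 1 or more groups. Tests were two-sided, with Benjamini-Hochberg adjustment over all 8687 genes. Single values were tested by an exact permutation test that permuted treatment labels within each tissue over all 5096520 combinations, so that it tests the labels of both tissues together. The fit was tested on simulated data first. The sources differ on whether each library came from its own mouse: the series' design gives different mice for the spleens and for the tumors, while the study gives fewer animals for its RNA-seq than there are spleen libraries. Libraries were treated as independent, so p-values are too small if some share a mouse.

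Genes named are the 12 positive and 12 negative with the lowest p (predicted, pseudogene and non-coding symbols left out), genes of the study, and members of gene lists with the lowest p. The contrast, lists and named genes were chosen with earlier results of these data known. Positions and gene kinds come from GENCODE (GRCm38, the assembly of mm10) matched by symbol, and promoters from RefSeq (GRCm38.p6). The alternatives were other pseudocounts, filters, scalings, library weights, a covariate, a model without pooled variances, a block for the label number, averaging, and leaving out each library. 2 further ones, leaving out predicted symbols and leaving out both GBM IgG2a libraries that stand apart, were chosen after seeing the data.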

Additional observations from a re-analysis of the deposited data

Results flagged for a closer look

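Of 148 groups of libraries checked over 24 genes, 6 library measures and the marker lists, 14 had a library far from the others by Dixon's test, and chance flags about 1 in 20 groups. Values are log2(TPM + 1) unless another unit is given. No explanation was tested for them.

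In GBM IgG2a library tumor_369_a, the highest of its group, *Ssbp2* was at 8.32, *Fgd4* at 7.42, the summed Gm symbols at 16.99 and the summed T cell markers at 12.002. Its median over the genes tested was 1.41, the lowest of its group. The T cell markers were thus highest in the library with the fewest genes detected.

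Treated spleen library spleen_73_a was the lowest of its group for *Cldn34c1* (1.78), *Fgd4* (3.13) and *Olfr639* (3.36). *Apol9a* was at 2.01 in the treated library spleen_70_a, above the rest of its group, and at 0.42 in the treated library tumor_72_a, below the rest. *Bloc1s4* was listed at 0 in tumor_74_a, alone among the treated tumors. *Cd300ld2* was at 2.00 in the control library spleen_76_a and listed at 0 in the others of that group. The control library spleen_79_b stood out with mitochondrially encoded RNA at 16.93 and B cell markers at 10.44.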

How the results depend on the processing

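The count of 1056 genes at p under 0.05 became 2556 of 44850 without a filter on low values and 441 of 3981 when each group mean had to pass 10 TPM, where the number of genes tested changed. It was 635 to 1346 when 1 library was left out and 461 without both GBM IgG2a libraries tumor_369_a and tumor_79_a. Genes at an adjusted p under 0.05 (limma) numbered 0 in each of the 15 other settings and 0 to 2 when 1 library was left out, with 2 without control library tumor_77_a and 1 without treated library tumor_72_a. The median over all genes moved by less than its error of 0.66 in every setting.

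*Tbx21* turned negative with quantile normalization (-0.16), TMM-type factors (-0.11), library weights (-0.19) and without both libraries (-0.32), and ranged from -0.018 to 1.30 when 1 library was left out. *Tnfrsf18* turned negative with the block for the full label (-0.85) and ranged from -0.20 to 0.96 when 1 library was left out. *Il12rb1* was -0.011 without both libraries. Causes were not tested. Over 57 named genes, 94 gene and setting combinations lost and 14 gained a p under 0.05 (6 of *Pdcd1* and 8 of *Ccr2*), and 707 stayed. List medians moved by more than their spread in 20 combinations, among them the mitochondrially encoded genes with library weights (0.21).

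Spleen and tumor libraries that share a label number had little correlation of their deviations from the group means. Of 9 shared labels 1 had a correlation over 0.1 (range -0.15 to 0.16). A low correlation cannot exclude a shared mouse, and libraries of one number within a tissue were not compared. With libraries of one number averaged, 875 genes were at p under 0.05. With a replicate block for the label number 1190 genes were at p under 0.05, and with one for the full label 760, and 0 passed the adjusted threshold with either. Of the named genes at p under 0.05, *Lag3* (-2.60), *Pim2* (2.44), *Bcl3* (2.54) and *Igkc* had a p above 0.05 with the block for the label number. With the block for the full label the same 4 did, as did *Cxcr5*, *Hnrnpab*, *Jun*, *Mbp*, *Ms4a6c*, *Myo5a*, *Nfkbid*, *P4ha1*, *Psmd3*, *Stx11*, *Tapbpl* and *Tnf*.

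Precision is limited by 5 control tumors and an unknown depth. TPM is a share of each library, so abundant features move all others, and p-values measure the spread between libraries.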
